A study of Mus musculus with 18 samples.

Results

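Fast fibre contractile genes encode the sarcomere proteins of fast-twitch muscle fibres, and 10 of them were followed through adult life in mouse gastrocnemius: Myh1, Myh2, Myh4, Myl1, Mylpf, Tnnc2, Tnni2, Tnnt3, Mybpc2 and Tpm1. They were chosen by name, and each was read from the brightest probeset annotated to that gene alone. Such a probeset existed for 7 of the 10 genes, 1 probeset each, among 15300 probesets on the array. Myh1, Myh2 and Myh4 appeared only on probesets shared with other myosin heavy chains, so no value is given for any of these 3 genes singly. The muscle came from untreated male C57BL/6 mice aged 2, 11 or 25 months, with no allele named in the labels. Each age had 6 biological replicates, each on its own array, and both gastrocnemius muscles were taken for RNA depleted of ribosomal RNA. Whether a replicate was a single mouse is not given in the sources used here. Levels are log2 intensities, and a difference of 1 unit is a doubling of the signal.

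Fast fibres shorten quickly because of the protein isoforms in their filaments. Myosin heavy chains, with their light chains and myosin-binding protein C, form the thick filament and pull on actin. Tropomyosin and the 3 troponin subunits lie on the thin filament and open it to myosin when calcium rises. Most of these proteins have a slow fibre counterpart from a separate gene, and gastrocnemius in mice is dominated by fast fibres. In whole muscle, fewer fast fibres and less transcript per fibre cannot be told apart.

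Among the 7 singly measured genes, the widest span over all 18 arrays was 1.39-fold, for Mylpf, and the narrowest was 1.12-fold, for Tpm1. Probeset 6781846, shared by the fast heavy chain genes Myh4 and Myh1, spanned 1.79-fold and was 1.29-fold lower at 11 than at 2 months. Mylpf, the regulatory light chain of fast myosin, was lower at 11 and at 25 than at 2 months. Tnnt3, fast troponin T, was lower at 11 than at 2 months, and Mybpc2, fast myosin-binding protein C, was higher at 25 than at 2 months. The largest of these single-gene changes was 1.18-fold.

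Limma with Benjamini-Hochberg adjustment over all probesets and a threshold of 0.05 found 0 of 7 genes higher and 2 lower at 11 than at 2 months, where 19.1% of all probesets were called, 11.9% higher and 7.18% lower. At 25 against 2 months 1 gene was higher and 1 lower, against 17.4% of all probesets called, 10.5% higher and 6.95% lower. At 25 against 11 months 0 of 7 passed limma, where 0.150% of all probesets were called, 0.0588% higher and 0.0915% lower. Tukey's test after the one-way test also called 0 of 7 there, and 461 of all 15300 probesets. Before adjustment 3, 0 and 2 of the 7 genes had a p under 0.05 for 11 against 2, 25 against 11 and 25 against 2 months, where 35.8%, 10.4% and 30.0% of all probesets did. Array values of the ages failed to overlap for 1 gene, Mylpf, at 11 against 2 months and for 0 in the other 2 comparisons. Over all probesets that held for 6.42% at 11 against 2 months, 1.12% at 25 against 11 months and 7.23% at 25 against 2 months. Over the 3 ages together, limma's moderated F statistic called 1 of 7, Mylpf (adjusted p = 0.00568), against 19.2% of all probesets. The median log2 change of the 7 genes was -0.06 at 11 against 2 months, 0.05 at 25 against 11 months and -0.06 at 25 against 2 months. Over all probesets these medians were -0.02, 0.002 and -0.01.

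These genes were among the brightest signals on the arrays. Their mean log2 intensity lay between 12.95 and 13.78, where the median of all probesets was 6.63 and the highest value on any array was 14.16. All 7 lay in the brightest 1% of probesets, and array intensity does not rank transcript amounts between genes. The residual SD within ages was 0.04 to 0.11 log2 units for the 7 genes, with a median of 0.07, compared with a median of 0.09 for the brightest 1% and 0.12 for all probesets. The brightest 1% had a median log2 change of 0.04 at 11 against 2 months, and 26.1% of them were called. Whether signals this bright still rise in proportion to transcript was not tested.

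**Figure D1:**
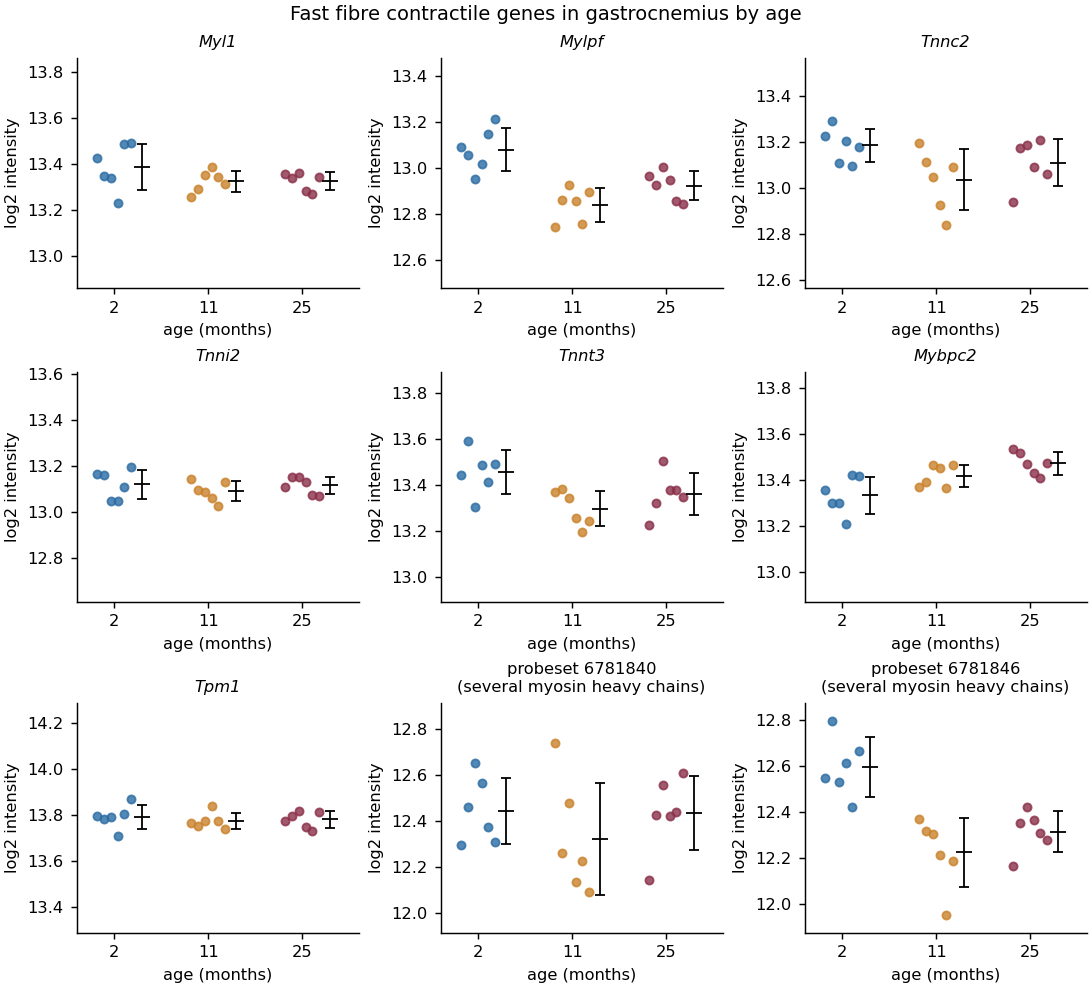
Log2 intensity by age in months for the 7 measured fast contractile genes and for 2 probesets shared by several myosin heavy chain genes. Points are single arrays, black marks are means with SD (n = 6), and every panel spans 1 log2 unit. Mylpf and probeset 6781846 lie lower at 11 months with no overlap with 2 months, and Tpm1 and Tnni2 barely move.

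The thick filament light chains differed from each other. Mylpf had a lowest, median and highest log2 intensity of 12.95, 13.07 and 13.21 at 2 months, 12.74, 12.86 and 12.92 at 11 months and 12.84, 12.94 and 13.00 at 25 months. All 6 arrays at 11 months lay below every array at 2 months, as did 2.37% of all probesets. At 25 months, 4 of 6 arrays lay below every array at 2 months, and the others overlapped.

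At 11 months Mylpf averaged 12.84 ± 0.07, against 13.08 ± 0.09 at 2 months (SD, n = 6 each). The log2 change was -0.24 ± 0.05 (SE), a 1.18-fold lower signal with a 95% interval of -0.34 to -0.14 and a limma adjusted p of 0.00295. This call held in all 29 alternatives that keep the threshold, with log2 changes from -0.27 to -0.16 and p, adjusted or Tukey, up to 0.0291.

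At 25 months Mylpf averaged 12.92 ± 0.06, and the change from 2 months was -0.16 ± 0.05 (SE; limma adjusted p = 0.0359). A further quantile normalization reduced it to -0.06 (adjusted p = 0.412). The call also ended when replicate 2, 5 or 6 of the 2-month arrays, or replicate 2, 5 or 6 of the 25-month arrays, was dropped (adjusted p 0.0504 to 0.0927). From 11 to 25 months the change was 0.08, with a 95% interval of -0.02 to 0.19 (limma adjusted p = 0.586).

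Myl1 encodes the essential light chains of fast myosin. It had 13.23, 13.39 and 13.49 at 2 months, 13.26, 13.33 and 13.39 at 11 months, and 13.27, 13.34 and 13.36 at 25 months (lowest, median and highest log2 intensity). The ages overlapped, and the 2-month arrays spread more widely (SD 0.10) than those at 11 months (0.05) and 25 months (0.04). The change was -0.06 at 11 against 2 months (95% interval -0.16 to 0.03; limma adjusted p = 0.340) and 0.002 at 25 against 11 months (-0.09 to 0.10; adjusted p = 0.990). At 25 against 2 months it was -0.06 (-0.16 to 0.04; adjusted p = 0.421).

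Mybpc2, which links myosin to the thin filament in fast fibres, had 13.21, 13.33 and 13.42 at 2 months, 13.37, 13.42 and 13.47 at 11 months, and 13.41, 13.47 and 13.53 at 25 months. Of the 6 arrays at 25 months, 5 lay above every array at 2 months. It was the only one of the 7 genes with a positive change at both later ages against 2 months. At 25 months Mybpc2 averaged 13.47 ± 0.05, against 13.33 ± 0.08 at 2 months (SD, n = 6 each), a log2 change of 0.14 ± 0.04 (SE) or 1.10-fold.

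Limma called this rise of Mybpc2 with an adjusted p of 0.0344. When each array's signal spread (its interquartile range on the log2 scale) entered the model, the change was 0.12 (adjusted p = 0.0623). Dropping replicate 2, 3 or 4 of the 2-month arrays, or replicate 1, 2, 3 or 6 of the 25-month arrays, ended the call too (adjusted p 0.0546 to 0.0810). At 11 against 2 months the change was 0.08 (95% interval -0.01 to 0.18; adjusted p = 0.170), which passed after quantile normalization (0.13, adjusted p = 0.0205). At 25 against 11 months it was 0.05 (-0.04 to 0.15; adjusted p = 0.709).

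Promoter sequence is shown for Mylpf and Mybpc2, whose signal changed, for the light chain gene Myl1 beside them, and for 2 of the heavy chain genes. Of the 10 genes, 8 had an entry in the RefSeq promoter table, build GRCm38.p6, all but Tnni2 and Tnnt3. The sequences are the 250 bases before the transcript start of that table, which for Mylpf and Myl1 lies inside the annotated gene. Capitals mark matches on either strand to an E-box (CANNTG, the site of myogenic regulators), a TATA box (TATAAA), a MEF3 site (TCAGGTT, a site of homeodomain factors in muscle promoters), a MEF2 site and a serum response factor CArG box. The MEF2 site was searched as its usual consensus, with either pyrimidine at its first base and either purine at its last. A MEF2 match can overlap a TATA box, as it did in Myh4 and Myh1.
Mylpf, chr7:127211358-127211607, strand +: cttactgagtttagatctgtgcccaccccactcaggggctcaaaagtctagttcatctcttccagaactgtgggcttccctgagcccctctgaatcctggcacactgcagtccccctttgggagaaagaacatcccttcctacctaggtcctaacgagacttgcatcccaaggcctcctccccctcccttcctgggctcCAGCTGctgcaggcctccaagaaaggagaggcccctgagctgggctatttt
Mybpc2, chr7:44524670-44524919, strand -: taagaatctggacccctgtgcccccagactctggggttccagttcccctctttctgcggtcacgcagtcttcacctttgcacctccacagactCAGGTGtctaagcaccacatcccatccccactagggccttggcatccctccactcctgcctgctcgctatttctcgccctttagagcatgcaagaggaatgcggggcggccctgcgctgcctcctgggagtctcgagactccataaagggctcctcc
Myl1, chr1:66945057-66945306, strand -: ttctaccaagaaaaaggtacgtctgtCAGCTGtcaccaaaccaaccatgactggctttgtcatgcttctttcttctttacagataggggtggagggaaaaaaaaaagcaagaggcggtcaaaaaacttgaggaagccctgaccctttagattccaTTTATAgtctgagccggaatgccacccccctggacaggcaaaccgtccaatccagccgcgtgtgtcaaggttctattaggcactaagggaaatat
Myh4, chr11:67237562-67237811, strand +: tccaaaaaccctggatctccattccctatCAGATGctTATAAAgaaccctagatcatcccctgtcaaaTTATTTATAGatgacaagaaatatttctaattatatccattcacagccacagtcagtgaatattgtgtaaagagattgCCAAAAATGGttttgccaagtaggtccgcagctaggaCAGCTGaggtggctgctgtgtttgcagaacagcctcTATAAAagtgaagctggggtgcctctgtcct
Myh1, chr11:67199852-67200101, strand +: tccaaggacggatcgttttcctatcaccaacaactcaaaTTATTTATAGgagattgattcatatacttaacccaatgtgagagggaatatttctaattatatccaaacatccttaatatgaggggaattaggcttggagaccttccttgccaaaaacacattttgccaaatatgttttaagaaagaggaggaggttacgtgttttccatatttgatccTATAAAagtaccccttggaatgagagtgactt

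The Mylpf and Mybpc2 windows each held 1 E-box, at 51 and 157 bases before the start, and neither held a TATA box. Myl1 held 1 E-box and 1 TATA box, the TATA box at 95 bases before the start and on the opposite strand. In Myh4 and Myh1 a TATA box lay 31 and 32 bases before the start. Myh4 also held 2 E-boxes and 1 CArG box, and Myh1 held no E-box. Of 27025 promoters of the same length, 66% held an E-box, 13% a TATA box, 3.49% a MEF3 site, 3.01% a MEF2 site and 1.4% a CArG box. A MEF2 match with the same letters, TTATTTATAG, began 182 bases before the start in Myh4 and 211 in Myh1, in each case spanning an opposite-strand TATA box. The other 3 windows held no MEF2 match, and none of the 5 held a MEF3 match. A match here is a description of letters, not evidence of binding.

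Myosin heavy chain is the motor itself: Myh4 encodes the IIb form, Myh1 the IIx form and Myh2 the IIa form. The arrays covered them with 2 bright shared probesets. Probeset 6781846 is annotated to Myh4 and Myh1, and probeset 6781840 to Myh8, Myh2, Myh3 and Myh1. How far each gene adds to either signal was not tested, and neither value is that of a single gene.

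Probeset 6781846 had 12.42, 12.58 and 12.80 at 2 months, 11.95, 12.26 and 12.37 at 11 months, and 12.17, 12.33 and 12.42 at 25 months. Every array at 11 months lay below every array at 2 months, and 5 of 6 arrays at 25 months did so. The change was -0.37 ± 0.07 (SE) at 11 against 2 months, 1.29-fold lower (limma adjusted p = 0.00138), and -0.28 ± 0.07 at 25 against 2 months, 1.21-fold lower (adjusted p = 0.00809). Leaving out the 3 arrays of narrowest signal spread (2 months replicates 4 and 6 and 25 months replicate 5) ended the second call (-0.26, adjusted p = 0.0627). At 25 against 11 months the change was 0.09 (95% interval -0.06 to 0.24; adjusted p = 0.684).

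Probeset 6781840 had 12.30, 12.42 and 12.65 at 2 months, 12.09, 12.24 and 12.74 at 11 months, and 12.14, 12.44 and 12.61 at 25 months. The ages overlapped throughout, and the highest single value belonged to 11 months replicate 1. Its changes were -0.12, 0.11 and -0.01 for 11 against 2, 25 against 11 and 25 against 2 months, with limma adjusted p of 0.382, 0.729 and 0.963. The residual SD was 0.19, more than that of any of the 7 single genes.

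Among thin filament genes, the troponin subunits Tnnt3 and Tnnc2 had larger estimated changes at 11 against 2 months than Tnni2 and Tpm1. A difference between these genes was not tested. Tnnt3 encodes the subunit that ties troponin to tropomyosin. It had 13.30, 13.46 and 13.59 at 2 months, 13.19, 13.30 and 13.38 at 11 months, and 13.22, 13.36 and 13.50 at 25 months. Of the arrays at 11 months, 3 of 6 lay below every array at 2 months.

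At 11 months Tnnt3 averaged 13.30 ± 0.08, against 13.45 ± 0.10 at 2 months (SD, n = 6 each). The log2 change of -0.16 ± 0.05 (SE) was 1.12-fold lower and close to the threshold (limma adjusted p = 0.0464). The call ended in 18 of 29 alternative settings. Among these were the model with signal spread (-0.10, adjusted p = 0.372), quantile normalization (-0.13, adjusted p = 0.127), and the one-way test over the ages, where Tukey's p of 0.0182 for the pair passed and the one-way p adjusted over probesets did not. It also ended when replicate 2, 4, 5 or 6 of the 2-month arrays, replicate 3, 4, 5 or 6 of the 11-month arrays, or replicate 2, 4 or 6 of the 25-month arrays was dropped (adjusted p 0.0551 to 0.114). The changes at 25 against 11 months (0.06, adjusted p = 0.723) and 25 against 2 months (-0.10, adjusted p = 0.246) did not pass limma.

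Tnnc2, the calcium-binding troponin C of fast fibres, had 13.10, 13.19 and 13.29 at 2 months, 12.84, 13.07 and 13.20 at 11 months, and 12.94, 13.13 and 13.21 at 25 months. At 11 months 4 of 6 arrays lay below every array at 2 months, and 11 months replicate 1 lay among the 2-month values. The change of -0.15 ± 0.06 (SE; 95% interval -0.28 to -0.02) had a limma adjusted p of 0.0912. Without 11 months replicate 1 it was -0.18 and passed (adjusted p = 0.0455). At 25 against 11 months it was 0.07 (adjusted p = 0.707) and at 25 against 2 months -0.07 (adjusted p = 0.450).

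Tnni2, the fast troponin I that holds the filament off when calcium is low, had 13.05, 13.14 and 13.20 at 2 months, 13.02, 13.09 and 13.14 at 11 months, and 13.07, 13.12 and 13.15 at 25 months. Tpm1, a tropomyosin that cardiac muscle also makes, had 13.71, 13.79 and 13.87 at 2 months, 13.74, 13.77 and 13.84 at 11 months, and 13.73, 13.79 and 13.82 at 25 months. The ages overlapped for both genes. For Tnni2 the changes were -0.03, 0.03 and -0.01 for 11 against 2, 25 against 11 and 25 against 2 months, and for Tpm1 they were -0.02, 0.01 and -0.01. Limma adjusted p was 0.600 to 0.946 for Tnni2 and 0.746 to 0.962 for Tpm1.

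The intervals bound the change of signal that could have gone unseen in these 2 genes under the normalization used. Whether signals this bright follow the transcript in proportion was not tested, so a change of transcript is not bounded. Over the 3 comparisons the 95% intervals of Tnni2 ran from -0.11 to 0.11 log2 units and those of Tpm1 from -0.10 to 0.09.

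**Figure D2:**
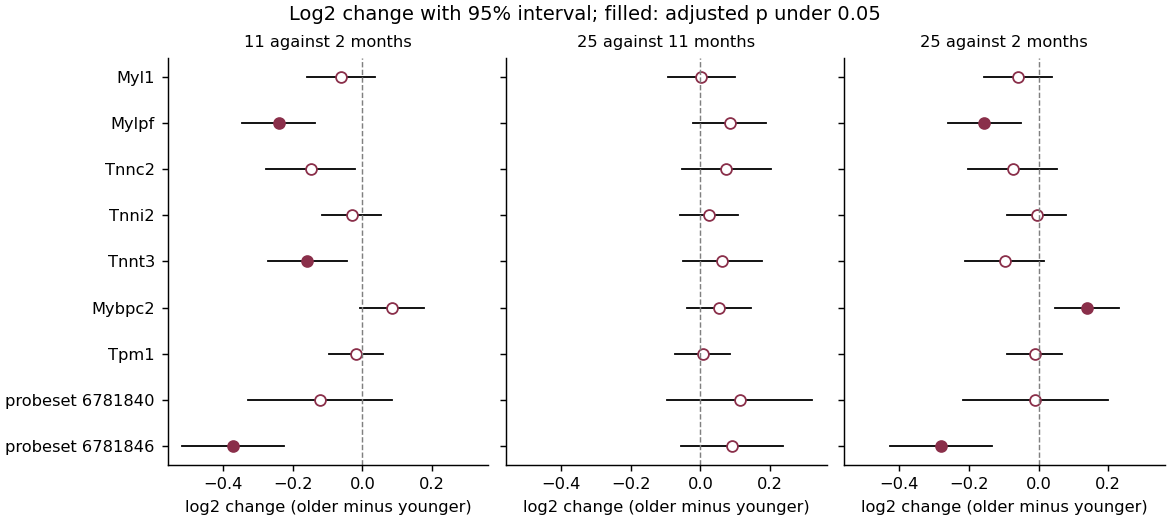
Log2 change, older minus younger age, with its 95% interval for the 7 genes and the 2 shared myosin heavy chain probesets in the 3 comparisons. Filled points passed limma at an adjusted p under 0.05. At 11 against 2 months Mylpf, Tnnt3 and probeset 6781846 are filled, at 25 against 11 months none is, and at 25 against 2 months Mylpf, Mybpc2 and probeset 6781846 are.

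Among arrays of 1 age the genes varied together in sets that cut across thick and thin filaments. With the age means removed, Pearson correlations over 18 arrays between the 21 pairs of the 7 genes had a median of 0.40. Myl1 and Mybpc2 reached 0.88, Myl1 and Tpm1 0.83, and Mylpf and Mybpc2 0.72. Tnnc2 and Tnnt3 reached 0.75 with each other and 0.82 and 0.83 with probeset 6781846. Between these sets the values were low or negative, such as -0.41 for Myl1 and Tnnc2 and -0.24 for Mybpc2 and Tnnt3. Tnni2 correlated at 0.60 with Mylpf and 0.54 with Tnnc2. All values come from the same arrays, dissections and normalization, so they are given as descriptions with no test.

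**Figure D3:**
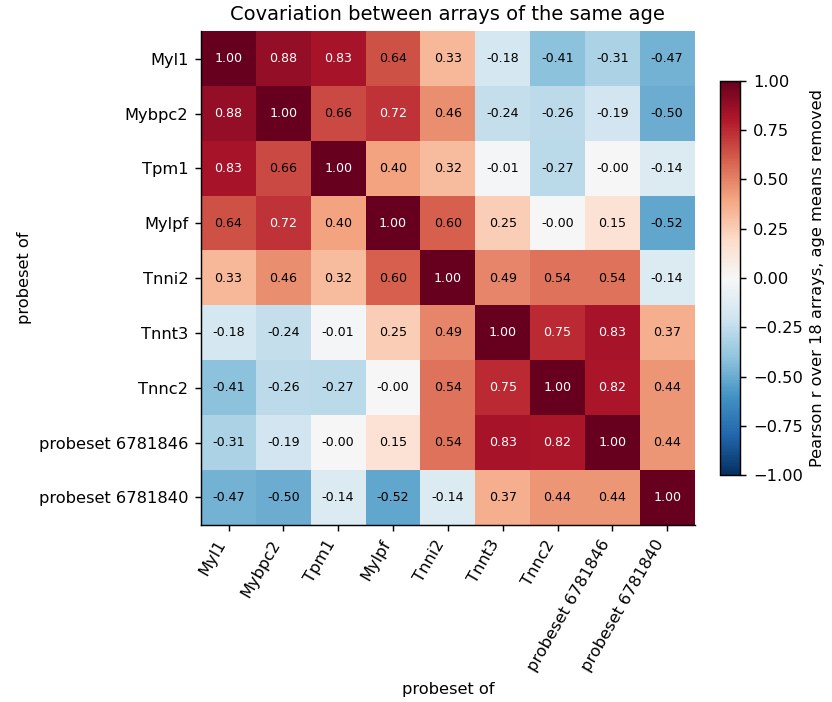
Pearson r over 18 arrays after subtracting each age's mean, for the 7 genes and the 2 shared myosin heavy chain probesets on both axes. Red marks arrays high together and blue the opposite. Myl1, Mybpc2, Tpm1 and Mylpf form 1 block (0.40 to 0.88), and Tnnt3, Tnnc2 and probeset 6781846 another (0.75 to 0.83).

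Over all 18 arrays, ages included, the genes most like Mylpf among 5455 other genes were Atp1b2, a sodium pump subunit (r = 0.93), Mybph, a myosin-binding protein (0.89), Actc1, cardiac actin (0.87), Mlec (0.87) and Mical2 (0.86). Mybph and Actc1 changed far more than Mylpf: at 25 against 2 months their log2 changes were -1.08 (limma adjusted p = 0.00793) and -2.65 (adjusted p = 7.15e-08). The Mybph call at 25 months ended without the 3 arrays of narrowest signal spread. For Tnnt3 the most like genes were Plec, the cytoskeletal linker plectin (0.93), Wdfy3 (0.93), Myo18a (0.93), Baz2a (0.91) and Hspa12b (0.88), and Plec, Wdfy3 and Hspa12b were also among those of Tnnc2 (0.81 to 0.83). For Mybpc2 they were Tmbim6 (0.88), Ppp3cb, a calcineurin catalytic subunit (0.87), Mtdh, Ssr3 and Atp6v0a1 (0.85 each). The muscle calcium store protein Casq1 was second for Myl1 (0.80), and Actn1 was first for Tpm1 (0.77). These likenesses are descriptions over arrays that share age and normalization.

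Of 12 slow fibre genes listed, 8 had a probeset of their own, and at 25 against 2 months limma called 5 of 8 (62.5%) higher and 0 lower, where 17.4% of all probesets were called and 10.5% higher. The median log2 change was 0.57, and a difference from the fast contractile set was not tested. Tukey's test after the one-way test called 1 of 8, Tnni1, and 2377 of all 15300 probesets. Dropping single arrays gave 4 to 7 slow genes by limma. Slow troponin I, Tnni1, averaged 9.76 ± 0.36 at 25 months, against 8.85 ± 0.56 at 2 months (SD, n = 6 each), a 1.87-fold rise (limma adjusted p = 0.00498). Slow myosin light chain Myl2 rose 1.76-fold (adjusted p = 0.00897) and the calcium store protein Casq2 1.51-fold (adjusted p = 0.0162). The calcium pump Atp2a2 and the tropomyosin Tpm3, named after their values were seen, rose 1.48-fold and 1.37-fold (adjusted p = 0.0179 and 0.0468). The call of Tpm3 ended when any single array but replicates 3 and 4 of 2 months or 1 and 4 of 25 months was dropped. Slow troponin C, Tnnc1, and the genes Myl6b and Myoz2 did not pass at 25 against 2 months. Their changes were 0.58, 0.29 and 0.18 (limma adjusted p = 0.0664, 0.0677 and 0.494).

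At 11 against 2 months and at 25 against 11 months limma called 0 of 8 slow genes, and so did Tukey's test. Of all probesets limma called 19.1% and 0.150%, and Tukey's test 2299 and 461 of 15300. Before adjustment 1 and 0 slow genes had a p under 0.05, where 35.8% and 10.4% of all probesets did. The medians of the slow genes were 0.25 and 0.30. Without 2 months replicate 3 limma called 2 slow genes at 11 against 2 months, and without 2 months replicate 4 it called 1. Probeset 6824785, annotated to both Myh7 and Myh6, the slow and cardiac heavy chains, had a change of 0.47 at 25 against 2 months (limma adjusted p = 0.0893).

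**Figure D4:**
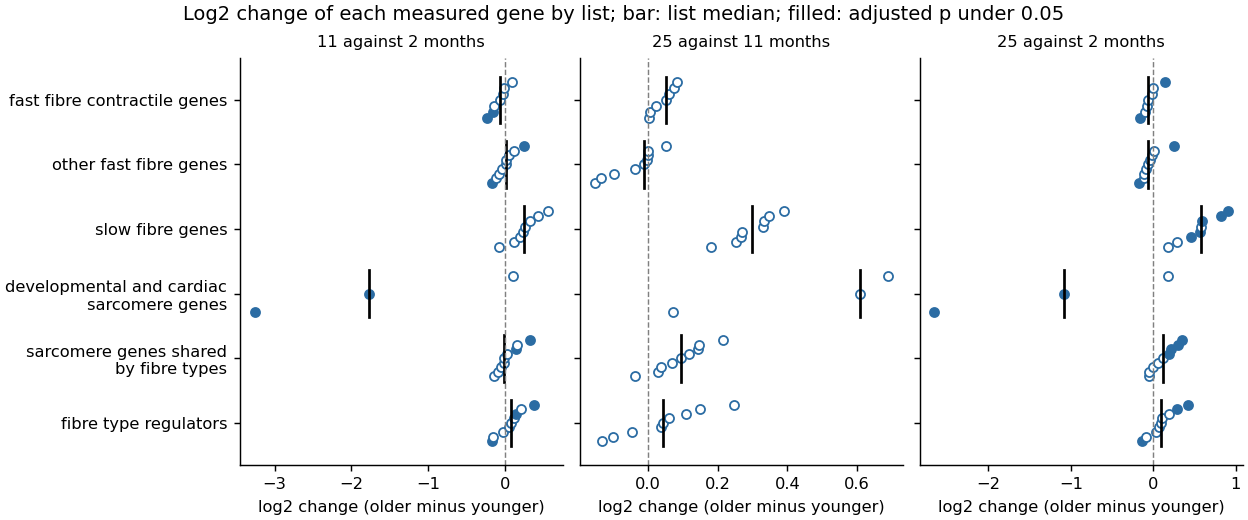
Log2 change, older minus younger age, of every measured gene in the fast contractile set and in 5 further lists, with a bar at each list's median and filled points for an adjusted p under 0.05. The horizontal scale differs between panels. The slow fibre list has a median of 0.57 at 25 against 2 months and the fast contractile set one of -0.06.

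Slow and fast paralogues were also set against each other within each array, which cancels a factor common to all signals of an array but not a stretch or compression of their range. The log2 difference Tnni1 minus Tnni2 had a lowest, median and highest value of -4.99, -4.37 and -3.44 at 2 months, -4.04, -3.68 and -3.25 at 11 months, and -3.87, -3.35 and -2.81 at 25 months. The ages overlapped, and the mean shift of 25 against 2 months was 0.91 log2 units. For Tnnc1 minus Tnnc2 that shift was 0.65, and for Myl2 minus Mylpf it was 0.97. The 3 pairs were chosen after their values were seen, so no test is given. A shift shows unequal change of the probesets, and their separate changes stand above. Neither Tnnc1 (0.58, limma adjusted p = 0.0664) nor Tnnc2 (-0.07, adjusted p = 0.450) passed at 25 against 2 months.

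Within ages Tnni1 and Tnni2 correlated at -0.76, the most negative value of Tnni1 with any of the 7 genes. The summed signal of Tnni1 and Tnnc1, the 2 measured of 5 slow fibre markers, was 1216 to 3602 intensity units at 2 months, 2206 to 3292 at 11 months and 2254 to 4506 at 25 months. Tnnc1, which limma did not call in any comparison, made up most of the sum (mean log2 10.65 at 2 months, against 8.85 for Tnni1). How much slow muscle, such as adjoining soleus, each dissection held was not tested.

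**Figure D5:**
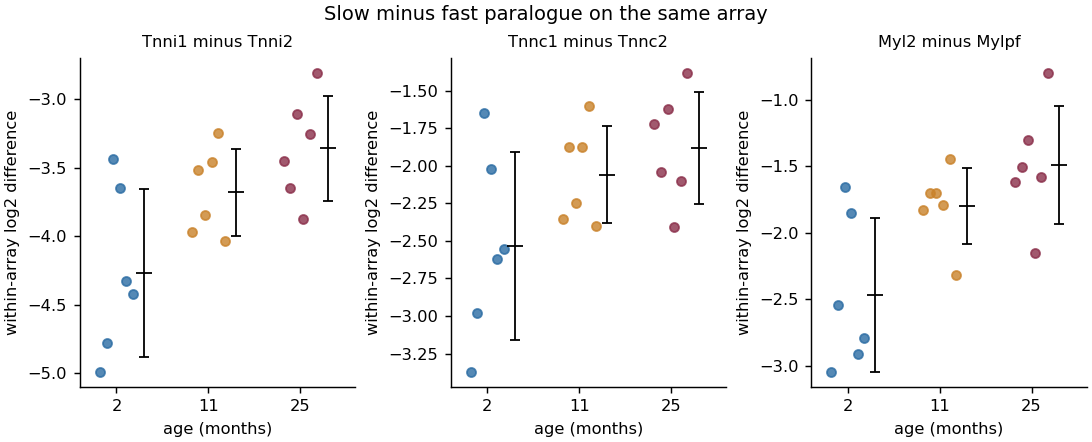
Within-array log2 difference of a slow gene minus its fast paralogue (troponin I, troponin C, regulatory myosin light chain) by age in months. Points are single arrays and black marks are means with SD (n = 6). All 3 differences have their highest mean at 25 months, and the 2-month arrays spread most widely and overlap both later ages.

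Of 11 other genes tied to fast fibres, 9 were measured, and at both later ages against 2 months limma called 1 higher, Cacna1s, the voltage sensor of the transverse tubule, and 1 lower, Casq1, the main calcium buffer of the fast sarcoplasmic reticulum. These 2 of 9 (22.2%) are near the share of all probesets called, 19.1% at 11 and 17.4% at 25 against 2 months. At 25 months Cacna1s was 1.19-fold higher (adjusted p = 0.00206) and Casq1 1.13-fold lower (adjusted p = 0.0134). The fast actinin Actn3 had changes of 0.01 at both ages against 2 months (adjusted p = 0.920 and 0.931), and the fast calcium pump Atp2a1 had changes of -0.04 (adjusted p = 0.482 and 0.514). Parvalbumin, Pvalb, a soluble calcium buffer, had a change of -0.11 at 25 against 2 months and missed the threshold (adjusted p = 0.0512).

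Between 11 and 25 months limma called 0 of these 9, Tukey's test called 1, and 2 had a p under 0.05 before adjustment. Over all probesets limma called 0.150% there, Tukey's test called 461 of 15300, and 10.4% had a p under 0.05 before adjustment. Casq1 lost its call at 11 against 2 months without 2 months replicate 6. Without 2 months replicate 4 the count at 25 against 2 months was 4.

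Sarcomere genes that all fibre types share had 9 of 11 measured. At 11 against 2 months 2 rose and 0 fell by limma: Des, the intermediate filament desmin (1.25-fold, adjusted p = 6.83e-05), and Myom1, an M-band protein (1.11-fold, adjusted p = 0.0184). This share of 22.2% is near the 19.1% of all probesets called. At 25 against 2 months 4 (44.4%) rose and 0 fell, where 17.4% of all probesets were called and 10.5% higher, led by Des (1.27-fold, adjusted p = 1.38e-05), Myom1 (1.16-fold, adjusted p = 0.00104) and the titin cap Tcap (1.23-fold, adjusted p = 0.0262). The count of 4 was 2, Des and Myom1, when replicate 1 or 6 of the 2-month arrays or replicate 3 or 6 of the 25-month arrays was dropped, and Tcap also lost its call without replicate 5 of 2 months or 1 of 25 months. Skeletal actin, Acta1, did not pass (-0.06, adjusted p = 0.358). For 25 against 11 months limma called 0 of 9, Tukey's test called 1, and 4 had a p under 0.05 before adjustment. The same 3 measures over all probesets were 0.150%, 461 of 15300 and 10.4%.

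Fibre type regulators had 9 of 11 measured, and limma called 3 of 9 (33.3%) at both later ages against 2 months, where 19.1% and 17.4% of all probesets were called. Tbx15, a factor that glycolytic fast fibres need in mice, rose 1.29-fold at 11 and 1.34-fold at 25 against 2 months (limma adjusted p = 1.85e-04 and 3.15e-05). Mef2c, an activator of muscle genes, rose 1.10-fold and 1.22-fold (adjusted p = 0.0297 and 1.09e-04). Sox6, which represses slow fibre genes in mice, fell by 0.18 and 0.14 log2 units (adjusted p = 0.0113 and 0.0438). The call of Tbx15 was made at both ages without any single array. That of Mef2c at 11 months ended without replicate 6 of 2 months or replicate 3, 4 or 5 of 11 months, and that of Sox6 at 25 months ended for 11 of the 18 arrays dropped in turn. Both calls also ended with signal spread in the model and without the 3 arrays of narrowest spread. Quantile normalization ended that of Mef2c at 11 months too, while median centring, array weights and a fit of only the 2 ages ended that of Sox6 at 25 months. At 11 months the Sox6 call ended with signal spread in the model. Comparing 25 with 11 months, limma called 0 of 9, Tukey's test called 1, and 2 had a p under 0.05 before adjustment. Among all probesets these were 0.150%, 461 of 15300 and 10.4%.

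Of 5 skeletal muscle markers listed, Acta1 and Ckm had mean log2 intensities of 14.00 to 14.10 at every age, while the atrial genes Myl7 and Nppa had 5.25 to 5.65. The other muscle markers had means of 12.39 to 12.74 (Des), 12.88 to 13.17 (Mb) and 7.66 to 7.74 (Myod1). At 11 against 2 months limma called 2 of 5 higher, Des (adjusted p = 6.83e-05) and Mb (adjusted p = 0.00835). At 25 against 2 months it called 1, Des. Of all probesets 11.9% and 10.5% were called higher. Array medians lay between 97.6 and 101 intensity units and the signal spread between 2.03 and 2.45 log2 units. The spread ran from 2.03 to 2.35 at 2 months, 2.25 to 2.45 at 11 months and 2.13 to 2.37 at 25 months. It thus tended to be narrower at 2 than at 11 months, with overlap, and was not independent of age. Markers of some other cells differed between ages. The 3 measured of 4 tenocyte markers summed to 397 to 501 units at 2 months, 266 to 319 at 11 months and 241 to 295 at 25 months. Limma called 2 of 3, Tnmd and Kera, lower at both later ages than at 2 months, where 7.18% and 6.95% of all probesets were lower. Their mean log2 intensities were 7.35 and 7.06 at 2 months and 6.43 and 5.53 at 25 months, where the median of all probesets was 6.63. Scx did not pass at 11 (-0.27, limma adjusted p = 0.146) or 25 against 2 months (-0.18, adjusted p = 0.400). The 2 measured of 4 Schwann cell markers summed to 909 to 1142, 674 to 1014 and 626 to 742 at the same ages, with 1 of 2 lower at both. The gene called was Pmp22, which made up most of the sum (mean log2 9.82 at 2 months, against 6.80 for Mbp). Mbp itself did not pass at 11 (-0.13, limma adjusted p = 0.262) or 25 against 2 months (-0.05, adjusted p = 0.728). The 4 measured of 5 fat cell markers summed to 304 to 842 at 11 months, against 273 to 424 at 2 months. Of these 3 of 4 were called higher at 11 against 2 months, as were 11.9% of all probesets. At 25 months they summed to 288 to 525. Against 2 months limma called 0 of 4 there, where 17.4% of all probesets were called. Skin markers summed to 1255 units in 11 months replicate 4 and to at most 534 elsewhere. Without that array the change of Mylpf at 11 against 2 months was -0.24 (limma adjusted p = 0.00544). That of Tnnt3 was -0.15 and no longer passed (adjusted p = 0.0778). The part of the tenocyte, Schwann cell and fat cell signals in these results was not tested.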

How the data were processed

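Gene expression was measured in gastrocnemius of mice of 3 ages, 6 samples each, on Affymetrix whole-transcript arrays. The deposited values are intensities on a linear scale; per the submitters' processing notes the authors used RMA, Affymetrix Expression Console 1.2.1 and build mm8. GeneSpring GX 14.9 is named in the series text. A filter on probesets is not given in the sources used here. Of 15300 probesets, 13592 had 1 gene symbol, 941 several and 767 none. Log2 was taken, and limma 3.58.1 (R 4.3.3) was fitted to all probesets and 18 arrays with 1 mean per age, after a test on simulated data; Benjamini-Hochberg adjustment ran over all probesets of a comparison. Errors are SE of changes, with 95% intervals, and SD of levels; 6 arrays an age limit the precision. Figures used Python 3.11.15 and matplotlib 3.10.9.

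The genes and lists were chosen with earlier results of these data known. All 10 members were to be named, and from each further list up to 3 genes per comparison by smallest p. Planned within-array differences between Myh1, Myh2, Myh4 and Myh7 could not be run, as these have no probeset of their own; the likeness rule, the 5 genes of highest r with a mean log2 of at least 7, was applied to the measured members instead. Replicate numbers were not taken to pair the samples. The correlation of same-numbered deviations ran from -0.33 to 0.42 over 18 pairs, with a median of -0.03, against 0.01 for other numbers. These values cannot show whether a number marks a shared batch. The alternatives are the methods' one-way test with Tukey, quantile normalization, median centring, leaving out dim probesets (mean log2 under 6), trended and robust variance, array weights, a replicate block, 2-age fits, the signal spread as covariate, fits without the 3 narrowest arrays or any 1 array, gene means, a threshold of 0.01 and a fold of 1.5.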

Additional observations from a re-analysis of the deposited data

Results flagged for a closer look

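Among 78 sets of 6 arrays of 1 age checked for an array far from its fellows, 1 was picked out, and chance alone picks out about 1 in 20 such sets. Tpm1 in 11 months replicate 4 had a log2 intensity of 13.84, where the next highest array of that age had 13.78. The gap took up 0.639 of the range of the age, above Dixon's critical value for 6 arrays. Without that array the change of Tpm1 at 11 against 2 months was -0.03 (limma adjusted p = 0.592), and this is the array with the raised skin markers.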

How the results depend on the processing

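For 25 against 11 months the count of fast contractile genes called was 0 in all 31 alternatives. At 11 against 2 months the count of 2 became 1 by the one-way test with Tukey, with array weights, with the replicate block, with only the 2 ages compared, with the signal spread as a covariate, without the 3 narrowest arrays and at a threshold of 0.01, and Mylpf was the gene called each time; it was 0 at a fold of at least 1.5 and 1 to 3 without single arrays. At 25 against 2 months the count of 2 became 1 after quantile normalization (Mybpc2) and with the covariate (Mylpf), and 0 with the replicate block, with only the 2 ages, without the 3 narrowest arrays, at 0.01 and at 1.5-fold; it was 0 to 2 without single arrays. Over the 3 ages the count of 1 became 2 by the one-way test and with trended and robust variance, and was 1 to 2 without single arrays. No called change of sign occurred. Under the replicate block, which rests on a shared number alone, the adjusted p was 0.0734 for Tnnt3 at 11 against 2 months, and 0.0730 for Mylpf and 0.0628 for Mybpc2 at 25 against 2 months. The calls of Mef2c at 11 and of Sox6 at 25 against 2 months also ended under it. Where a count moved the cause was not tested. Over all probesets, 2919 calls at 11 against 2 months became 138 at 1.5-fold and 1895 to 3787 without single arrays. With the signal spread as a covariate they became 959, and without the 3 narrowest arrays 1555. At 25 against 2 months 2666 calls became 199 at 1.5-fold, 2536 with that covariate and 1802 without the 3 narrowest arrays. At 25 against 11 months 23 calls became 461 by the one-way test, 6 with the block and 3 to 33 without single arrays. Quantile normalization changed the split at 11 against 2 months from 1820 higher and 1099 lower to 1328 and 1214, and at 25 against 11 months from 9 and 14 to 11 and 9; median centring gave 9 and 7 there. The mean over probesets equals the brightest probeset for all 7 genes, and the planned myosin heavy chain differences were not run. All 7 genes lay among the brightest 1% of probesets, so dimness did not limit their values. The alternatives for the further lists and the shared probesets were chosen after seeing the data.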
